A study of Mus musculus with 2 samples.

Results

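Spp1 and Cck, 2 of the 31053 genes in the deposited count matrices, were followed through the luminal cells of the mouse mammary gland. They were chosen by name, after earlier results of these data had shown both to be high in milk-protein-making cells and lower in the transgenic library, so their levels are given as a description with no test. Luminal cells were sorted by flow cytometry from FVB/NJ mice aged 3.5 months and profiled by droplet single-cell RNA sequencing, which tags each captured mRNA with a unique molecular identifier (UMI). The WT library came from Sox9-GFP mice and the C3-TAg library from Sox9-GFP;C3-TAg mice, so the reporter is present in both groups and the C3-TAg transgene in 1 of them. In that transgene the C3 promoter drives a viral T antigen, which binds the Rb and p53 tumour suppressors, in mammary epithelium. Each group is 1 library, and the sources used here do not say how many mice went into it. Whatever else differed between the preparations cannot be told apart from genotype. No difference between the libraries therefore has a replicate check, and every interval below is a 95% interval that covers counting error only.

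Cells were put into 3 classes with genes other than Spp1 and Cck. Hormone-sensing cells held at least 5 UMIs per 10000 from Areg, Pgr, Esr1 and Cited1 together. The other cells were casein-high where Csn1s1, Csn1s2a, Csn2 and Csn3 made up at least 0.5% of their UMIs and casein-low below that. WT had 2720 hormone-sensing, 3750 casein-high and 576 casein-low cells, and C3-TAg had 2027, 2491 and 3396. The sort decides in part how many cells of each class were captured, and class sizes are not compared here.

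Spp1 encodes osteopontin, an acidic phosphoprotein that is secreted into milk, bone matrix and other fluids. It binds integrins through an RGD motif and also binds CD44. Casein kinases of the secretory pathway, such as the FAM20C kinase, phosphorylate it, and proteases and transglutaminase 2 cleave and crosslink it. Cck encodes procholecystokinin, the precursor of a peptide hormone of the gut and a transmitter of the brain. Prohormone convertases cut the precursor, a sulfotransferase sulfates its tyrosines, carboxypeptidase E trims it and PAM amidates its end, and the peptides act on the receptors CCKAR and CCKBR. In the mammary gland, luminal progenitors that do not sense hormones give rise to alveolar cells, which make caseins, alpha-lactalbumin and milk fat.

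Spp1 (ENSMUSG00000029304) is a protein-coding gene on the plus strand of GRCm38 chromosome 5, from 104435118 to 104441050. Cck (ENSMUSG00000032532) is a protein-coding gene on the minus strand of chromosome 9, from 121489824 to 121495694. The 250 bases before a RefSeq start of each gene (GRCm38.p6) are printed because both genes were high in the same cells. They span chr5:104434861-104435110 on the plus strand and chr9:121495695-121495944 on the minus strand. In capitals are matches to 6 motifs searched on both strands. These motifs were chosen after the sequences had been seen.
Spp1 promoter: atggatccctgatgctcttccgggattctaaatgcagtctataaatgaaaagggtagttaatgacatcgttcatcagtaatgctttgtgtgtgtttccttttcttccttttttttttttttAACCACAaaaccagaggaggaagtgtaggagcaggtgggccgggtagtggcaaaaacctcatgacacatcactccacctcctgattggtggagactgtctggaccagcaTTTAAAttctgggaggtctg
Cck promoter: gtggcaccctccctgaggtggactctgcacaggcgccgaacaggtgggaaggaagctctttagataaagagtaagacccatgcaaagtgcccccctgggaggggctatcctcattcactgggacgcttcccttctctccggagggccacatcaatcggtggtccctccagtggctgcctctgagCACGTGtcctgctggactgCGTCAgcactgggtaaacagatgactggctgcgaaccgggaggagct

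The Spp1 window held the RUNX motif AACCACA 129 bases before the start and the TATA-like stretch TTTAAA 20 bases before it. The Cck window held the E-box CACGTG 66 bases before the start and, on the other strand, the cyclic-AMP response half-site TGACG 47 bases before it. Neither window matched the STAT motif TTCNNNGAA or the AP-1 motif TGANTCA, and no motif was shared by both windows. Among 32851 RefSeq promoter windows of the same length, 4.40% held the RUNX motif, 12.1% the TATA-like stretch, 6.02% the E-box, 17.8% the half-site, 7.02% the STAT motif and 6.75% the AP-1 motif. A 2nd RefSeq start of Spp1 lies further downstream, and its window held none of the 6. A match describes letters only and says nothing about binding.

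The WT matrix held 8993 barcodes and 91133082 UMIs, and the C3-TAg matrix 9575 barcodes and 91932121 UMIs. After filters and removal of called doublets, 7046 and 7914 cells were kept, with medians of 10296 and 8684 UMIs. The libraries shared 20 barcodes, 17 of them among kept cells. All 6 luminal epithelial markers, among them Epcam, Krt8 and Krt18, were above 20 CPM in every class of each library. The casein-high class, which the rule ties to caseins, also carried milk genes outside the rule such as Lalba. Cells with at least 2 UMIs of the G2M genes made up 2.27% of WT and 76.5% of C3-TAg casein-high cells, so that the libraries differ in cycling cells as well as in genotype.

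Spp1 made up a large part of the mRNA of WT casein-high cells. Its level there was 25914 counts per 1000000 UMIs (CPM; interval 25868 to 25960, from 1214366 UMIs), or 2.59% of all their UMIs. In WT casein-low cells it was 809.1 CPM (783.7 to 835.1), and in WT hormone-sensing cells 654.0 CPM (644.3 to 663.7). In C3-TAg the order of the classes was the same at lower levels. Casein-high cells held 3156 CPM (3135 to 3176, from 90242 UMIs), casein-low cells 102.1 CPM (98.6 to 105.6) and hormone-sensing cells 87.2 CPM (82.8 to 91.7). Spp1 was 32.0-fold higher in casein-high than in casein-low cells of WT and 30.9-fold higher in C3-TAg. The intervals of casein-low and hormone-sensing cells did not overlap in either library, though the 2 classes stood only 1.24-fold apart in WT and 1.17-fold in C3-TAg.

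Cck was counted far less often, with the same preference for casein-high cells. Its level in WT casein-high cells was 466.9 CPM (460.7 to 473.1, from 21879 UMIs), against 24.2 CPM (20 to 29.1) in casein-low and 16.2 CPM (14.7 to 17.8) in hormone-sensing cells. In C3-TAg casein-high cells it was 20.2 CPM (18.6 to 21.9, from 578 UMIs). Only 19 Cck UMIs were found in the 2027 C3-TAg hormone-sensing cells, 1.12 CPM (0.672 to 1.74), and only 4 in the 3396 casein-low cells, 0.124 CPM (0.0339 to 0.318). Unlike Spp1, Cck in C3-TAg was thus lower in casein-low than in hormone-sensing cells. Casein-high cells held 98.3% of the Spp1 UMIs and 97.6% of the Cck UMIs of kept WT cells, where they were 53.2% of the cells. In C3-TAg they held 94.98% of the Spp1 UMIs and 96.2% of the Cck UMIs and were 31.5% of the cells.

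**Figure D1:**
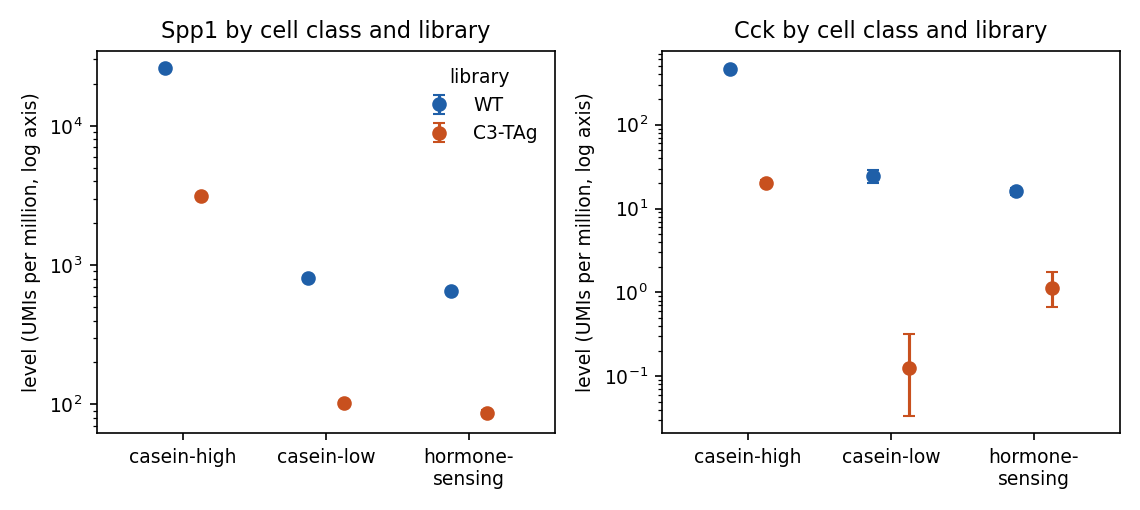
Level of Spp1 (left) and Cck (right) in CPM, on log axes, in the 3 cell classes of the WT (blue) and C3-TAg (orange) libraries; each point is 1 library, and bars are exact Poisson 95% intervals of the count, smaller than the point where not visible. In every class the C3-TAg point lies below the WT point, and casein-high cells are highest in each library.

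The hormone-sensing values rested on few cells in both libraries. In WT, 39 hormone-sensing cells whose casein share was 0.5% or more held 58.8% of the Spp1 UMIs and 80.1% of the Cck UMIs of that class. Their median depth was 17155 UMIs, against 9395 in the other hormone-sensing cells. In C3-TAg, 29 such cells held 47.1% of the Spp1 UMIs and 15.8% of the Cck UMIs of the class. Most of the WT counts were thus in a small set of deep, casein-bearing cells. In C3-TAg such cells held a large part of the Spp1 counts but few of the Cck counts. Spp1 was no less concentrated in C3-TAg. The 10% of hormone-sensing cells with the most Spp1 held 83.8% of its UMIs there and 68.5% in WT. Outside the casein-bearing cells the levels were lower. In the 2681 WT hormone-sensing cells with less casein, Spp1 was at 277.2 CPM and Cck at 3.31 CPM. In the matching 1998 C3-TAg cells Spp1 was at 47.4 CPM and Cck at 0.965 CPM, the latter from 16 UMIs. Raising the hormone threshold to 20 UMIs per 10000, a choice made after seeing the data, gave 331.3 CPM of Spp1 and 4.0 CPM of Cck in WT, and 27.9 and 1.46 CPM in C3-TAg. With called doublets kept, hormone-sensing Spp1 was 2926 CPM in WT against 253.7 CPM in C3-TAg, and Cck 58.2 against 2.65 CPM, so these levels depend on doublet removal. Whether these cells were doublets that the caller missed, cells of mixed identity or cells with free RNA was not tested.

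The proportion of Cck to Spp1 was not the same in every class. In WT, 1.80 Cck UMIs (1.78 to 1.83) were counted per 100 Spp1 UMIs in casein-high cells, 2.99 (2.46 to 3.604) in casein-low cells and 2.48 (2.25 to 2.73) in hormone-sensing cells. In the WT hormone-sensing cells with under 0.5% casein it was 1.20 (0.955 to 1.48), on the other side of the casein-high value. In C3-TAg the values were 0.640 (0.589 to 0.695) in casein-high, 0.122 (0.0331 to 0.312) in casein-low and 1.28 (0.769 to 2.01) in hormone-sensing cells, the last 2 from 4 and 19 Cck UMIs. Droplet libraries also hold RNA set free from broken cells, and its part in the low levels was not tested.

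Within WT casein-high cells, Spp1 varied widely from cell to cell. The median cell held 165.7 Spp1 UMIs per 10000, the 10th percentile was 3.33, the 90th was 591 and the highest cell held 1678. The 10% of cells with the most Spp1 held 34.4% of its UMIs. High Spp1 was thus a feature of most WT casein-high cells. In C3-TAg casein-high cells the median was 2.05 per 10000, the 90th percentile 88.8 and the maximum 578, and the top 10% held 62.9% of the UMIs, so that a smaller part of the cells carried the gene. Of WT casein-high cells 60.5% held at least 100 Spp1 UMIs per 10000 and 18.7% under 10. Of C3-TAg ones 8.43% held at least 100 and 64.4% under 10. The median C3-TAg casein-high cell lay near the WT median of casein-low cells, 2.82 per 10000, and that of WT hormone-sensing cells, 2.41. The median C3-TAg casein-low and hormone-sensing cell held no Spp1 UMI.

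**Figure D2:**
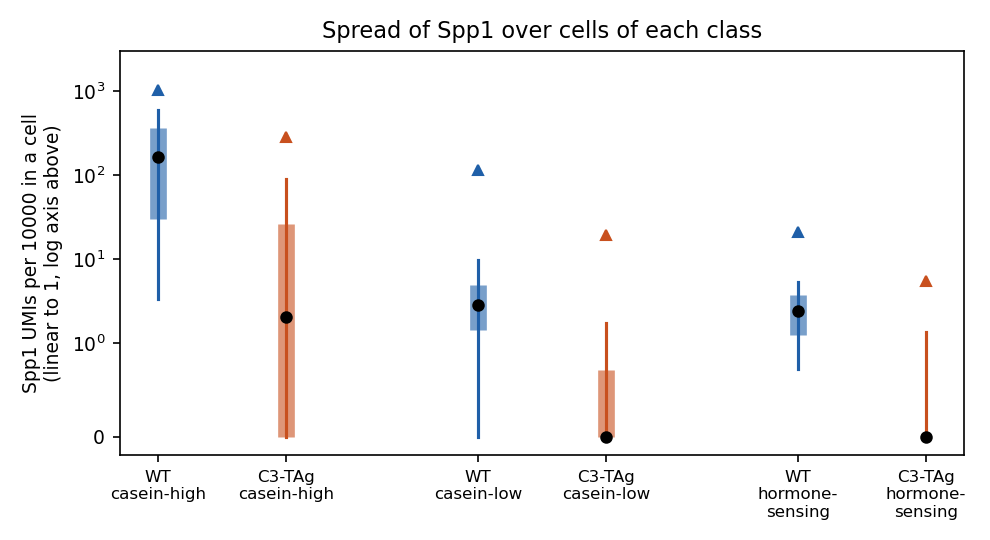
Spp1 UMIs per 10000 UMIs of a cell, on an axis that is linear to 1 and logarithmic above; thin lines run from the 10th to the 90th percentile of cells, thick bars from the 25th to the 75th, black points are medians and triangles the 99th percentile. The WT casein-high median is 165.7 and the C3-TAg one 2.05, while the C3-TAg medians of the other classes are 0.

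Cck was found as a few molecules per cell. Among the 2757 WT casein-high cells with a Cck UMI the median was 5 UMIs and the maximum 91. Among the 167 such C3-TAg cells the median was 2 and the maximum 19. After each cell was thinned to 2000 UMIs, which leaves out shallower cells, 43.2% of WT casein-high cells had a Cck UMI (41.6 to 44.8, 1617 of 3742), against 2.49% in C3-TAg (1.91 to 3.18, 62 of 2491). Before thinning the shares were 73.5% and 6.70%. Hormone-sensing cells above the stricter threshold of 20, in which Cck was near the floor, had Cck in 0.683% (0.383 to 1.12) in WT and in 0.148% (0.0179 to 0.534) in C3-TAg, at median depths of 9545 and 7811 UMIs before thinning. The casein-high cells had 11812 and 10190. The share of thinned C3-TAg casein-low cells with Cck, 0.0296% (1 of 3374), was not above that of the stricter hormone-sensing cells. The WT casein-low share, 4.75% (3.15 to 6.83), was above theirs in WT. The threshold of 20 was chosen after seeing the data. Among thinned WT cells with at least 3 detected non-epithelial marker genes, 13.6% had Cck (2.91 to 34.9, 3 of 22). Whether the WT casein-low share is above background was therefore not settled.

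Spp1 was detected in 90.2% of thinned WT casein-high cells (89.3 to 91.2) and in 48.2% of C3-TAg ones (46.2 to 50.2). Before thinning these were 98.3% and 65.7%. In WT the share was 50.1% (45.9 to 54.3) in casein-low cells and 41.8% (39.8 to 43.9) in the stricter hormone-sensing cells, and in C3-TAg 9.90% (8.91 to 11.0) and 4.59% (3.54 to 5.85). Unthinned, the WT shares were 86.6% and 91.1%, and the C3-TAg shares 28.8% and 19.3%. No class in these libraries clearly lacks Spp1. The cells with at least 3 detected non-epithelial marker genes were only 23 in WT and 12 in C3-TAg, and caseins made up 2.84% of the UMIs of the WT ones. Cells with a UMI of both genes made up 41.2% of thinned WT and 2.21% of thinned C3-TAg casein-high cells.

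Between the libraries, Spp1 was lower in C3-TAg in every class. The level was 8.21-fold lower in casein-high cells, from 25914 to 3156 CPM (log2 ratio -3.04, -3.05 to -3.03). It was 7.93-fold lower in casein-low cells (log2 -2.99, -3.05 to -2.92) and 7.50-fold lower in hormone-sensing cells (log2 -2.91, -2.98 to -2.83). Cck was lower by more in each of the 3 classes as defined. Its level was 23.1-fold lower in casein-high cells, from 466.9 to 20.2 CPM (log2 -4.53, -4.65 to -4.41). In casein-low cells the log2 ratio was -7.61 (-9.51 to -6.21) and in hormone-sensing cells -3.86 (-4.61 to -3.20), both from under 20 C3-TAg UMIs. With the hormone threshold at 20 the ratio in hormone-sensing cells was -3.57 (-3.74 to -3.41) for Spp1 and -1.45 (-2.32 to -0.67) for Cck. Spp1 was thus lower by more than Cck there. The same held in hormone-sensing cells with under 0.5% casein, 5.85-fold for Spp1 against 3.43-fold for Cck. Over all kept cells, whose mix of classes the sort sets in part, Spp1 was 12.9-fold and Cck 37.1-fold lower.

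The same ratio was computed for every gene. Of 12905 genes with at least 20 UMIs in casein-high cells, 31.2% were at least 1.5-fold higher and 10.6% at least 1.5-fold lower in C3-TAg, 41.7% in either direction. In casein-low cells 51.9% of genes were past 1.5-fold in either direction, and in hormone-sensing cells 32%. The median log2 ratio in casein-high cells was 0.32. Counted from the lowest ratio, Cck ranked 12 and Spp1 87. Because both genes were picked with this contrast known, nothing is read from those ranks. Scaling by the trimmed mean of M values (TMM) shifted every log2 ratio in these cells by -0.34, so that any ratio between 0 and 0.34 turns negative. Among genes past 1.5-fold, the share that was higher in C3-TAg went from 74.7% to 49.7%. The shift was -0.24 in casein-low cells, where that share went from 71.7% to 56.7%, and -0.18 in hormone-sensing cells, where it went from 71.4% to 54.6%.

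Caseins were themselves lower in the C3-TAg library, at 3.11% of casein-high UMIs against 6.30% in WT, so the genes were also set side by side at matched casein share. Cells outside the hormone-sensing class were divided into bins of casein share. In cells with 0.5 to 1% casein, Spp1 had 3259 CPM in 354 WT cells against 331.9 CPM in 491 C3-TAg cells, 9.82-fold lower. With 1 to 2% casein the levels were 10322 and 1378 CPM, 7.49-fold. C3-TAg cells in the latter bin thus held less Spp1 than WT cells in the bin below. With 2 to 4% they were 19290 and 2634 CPM, 7.32-fold. With 4 to 8% they were 29371 and 5154 CPM, 5.70-fold. In cells with 8% or more they were 41042 CPM in 846 WT cells and 15276 CPM in 142 C3-TAg cells, 2.69-fold (2.65 to 2.72). Spp1 was lower in C3-TAg in every bin, and from 0.5% casein upward the ratio was smaller in each bin, although the intervals of the bins at 1 to 2% and 2 to 4% overlapped. Below 0.5% there was no such order, with 11.9-fold at 0.25 to 0.5% and 2.83-fold at 0.1 to 0.25%.

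Cck followed a steeper course. In cells with 0.5 to 1% casein it had 86.9 CPM in WT against 0.769 CPM in C3-TAg, the latter from 4 UMIs, 113-fold lower (43.7 to 418). With 1 to 2% casein it was at 153.5 and 1.41 CPM, the latter from 11 UMIs (60.5- to 219-fold). With 2 to 4% it was at 283.2 and 6.89 CPM, 41.1-fold (31.6 to 54.4). C3-TAg cells of that bin thus held less Cck than WT cells with 0.5 to 1% casein. With 4 to 8% it was at 463.8 and 34.0 CPM, 13.6-fold (11.8 to 15.9). With 8% or more it was at 871.9 and 176.6 CPM, 4.94-fold (4.42 to 5.54). Cck was thus lower in C3-TAg at every casein share, and from 1% upward by a smaller factor the more casein the cells held. The mean casein share in the last bin was 13.3% in WT and 11.5% in C3-TAg, and 5.84% and 5.35% in the bin before.

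**Figure D3:**
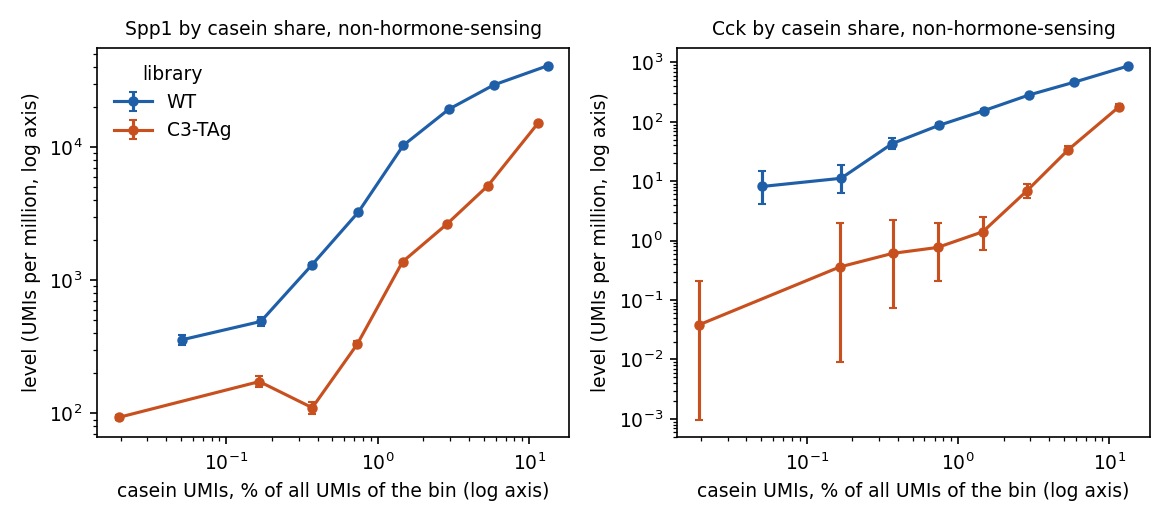
Level of Spp1 (left) and Cck (right) in cells outside the hormone-sensing class, in bins of casein share; the horizontal log axis gives the bin's caseins as a percentage of its UMIs and the vertical log axis the level in CPM, with exact Poisson 95% intervals. The C3-TAg curves (orange) lie under the WT curves (blue) in every bin, and the distance at 8% casein or more is 2.69-fold for Spp1 and 4.94-fold for Cck.

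Casein-high cells with G2M counts held less of both genes than those without. Among C3-TAg casein-high cells, the 1906 with at least 2 G2M UMIs had 2525 CPM of Spp1 and 10.2 CPM of Cck, and the 585 others 5815 and 62.6 CPM. That is 2.30-fold (2.27 to 2.33) and 6.16-fold (5.20 to 7.30). Caseins were 2.79% of the UMIs of the former and 4.49% of those of the latter. In WT, 85 such cells had 20246 CPM of Spp1 and 335.6 CPM of Cck, against 26078 and 470.7 CPM in the others. This order did not hold in every class. In WT casein-low cells, the 12 cells with at least 2 G2M UMIs had 1312.7 CPM of Spp1 (1123 to 1526) against 795.0 CPM in the others, and leaving such cells out lowered C3-TAg hormone-sensing Spp1 from 87.2 to 45.3 CPM. Without cells that had 2 or more G2M UMIs, the genotype ratio in casein-high cells was 4.48-fold for Spp1 (4.43 to 4.53) and 7.52-fold for Cck (6.76 to 8.39). Within casein bins of these cells, Spp1 was 5.66-fold lower at 0.5 to 1% casein, 5.28-fold at 1 to 2%, 5.99-fold at 2 to 4%, 4.88-fold at 4 to 8% and 2.23-fold at 8% or more. Cck was 23.3-fold lower at 2 to 4%, 7.56-fold at 4 to 8% and 3.33-fold at 8% or more, and the bins below rested on 3 and 1 C3-TAg UMIs. Both genes were thus lower in C3-TAg among cells without these G2M counts as well. What cycling adds to the difference between the libraries cannot be told apart from what the transgene adds.

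Cells rich in Spp1 were rich in Cck and in casein. WT casein-high cells were ranked by Spp1 and cut into 5 groups of 750 cells. Cck was at 166.5, 263.1, 392.3, 607.5 and 783.2 CPM from the lowest to the highest of these groups. Caseins went from 2.36% to 9.80% of UMIs over the same groups, and Wap, a late milk protein, from 19.2 to 316.0 CPM. In C3-TAg, Cck was at 1.82, 12.2, 4.63, 10.8 and 63.8 CPM, and the group with the most Spp1 stood apart. Only 1636 of the 2491 C3-TAg cells had a Spp1 UMI, so cells without one filled the lowest group and part of the next. Such cells were divided between these groups without regard to Spp1, so no order is read from the lower groups. WT cells with a Cck UMI held 29706 CPM of Spp1 and 7.31% casein, and those without 12917 CPM and 2.83%. The corresponding C3-TAg cells held 10516 and 2527 CPM of Spp1 and 7.40% and 2.75% casein.

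At like casein share, cells rich in Spp1 held more Cck, beyond counting error, in 4 of 5 WT bins and in 1 of 5 C3-TAg bins. Within each casein bin, cells were ranked by Spp1 and cut at the middle, and the upper group was set beside the lower one. In the C3-TAg bin at 0.5 to 1% casein only 39.7% of cells had a Spp1 UMI. The upper group of that bin thus also held cells without Spp1. In WT the log2 ratio of Cck between them was 0.06 (-0.27 to 0.40) at 0.5 to 1% casein, 0.90 (0.71 to 1.11) at 1 to 2%, 0.88 (0.77 to 0.99) at 2 to 4%, 0.50 (0.43 to 0.57) at 4 to 8% and 0.40 (0.35 to 0.46) at 8% or more. In C3-TAg it was 1.33 (0.96 to 1.72) in the 142 cells with 8% or more, from 237 and 81 Cck UMIs. The intervals of the other C3-TAg bins included 0. From the lowest bin up, their upper and lower groups held only 0 and 4, 6 and 5, 31 and 26, and 111 and 77 Cck UMIs. No absence of a link is read from so few counts. The cells richer in Spp1 also held somewhat more casein, 14.2% against 12.4% in the last WT bin and 12.5% against 10.4% in the last C3-TAg bin. In that C3-TAg bin 39.4% of the upper and 52.1% of the lower group had at least 2 G2M UMIs. The part of these differences in the Cck ratios was not tested.

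The genes that went most closely with Spp1 over single casein-high cells were milk genes. Pearson correlations of log-scaled counts were computed over 3742 WT and 2491 C3-TAg thinned cells, and genes were ordered by the smaller r of both libraries. The caseins also chose the class. Thinning gave every cell the same total, so more UMIs of some genes leave fewer for the others. For these reasons r is a description with no p. Csn1s2a had r = 0.54 in WT and 0.42 in C3-TAg, Csn2 0.54 and 0.40, Csn3 0.35 and 0.38 and Csn1s1 0.42 and 0.32. Lalba, which encodes the alpha-lactalbumin subunit of lactose synthase, had 0.39 and 0.41, and Trf, which encodes the iron carrier transferrin, 0.55 and 0.37. The other 4 of the first 10 were Saa1, an acute-phase apolipoprotein, Fth1, the ferritin heavy chain, Lcn2, the siderophore-binding lipocalin, and Lrg1, with r from 0.23 to 0.34. At the other end stood Krt18, a luminal keratin, with -0.33 and -0.19, and the actin-binding genes Tmsb4x, Tmsb10 and Tagln2 together with Tnfrsf12a. Over all 2085 genes ranked, the median r was -0.02 in each library.

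Cck shared 6 of the first 10 genes with Spp1. Its highest values were 0.21 in each library for Lalba, 0.36 and 0.20 for Csn1s2a, 0.34 and 0.20 for Csn2, and 0.30 and 0.19 for Spp1 itself. Trf, Csn3 and Csn1s1 followed, with Lipa, a lysosomal lipase, Folr1, a folate receptor, and Chil1, a chitinase-like secreted protein. In WT alone, where Cck is better counted, the first 10 also held Lao1, an L-amino acid oxidase of milk, at 0.28 and Cyb5a at 0.27. The lowest values belonged to Ptma, Tmsb4x, Ncl, Tmsb10 and Hmgb1, from -0.11 to -0.20. In casein-low cells the first 10 genes had r of at most 0.14 with either member, and between 0 and 10 of them stayed among the first 10 under other settings, so those genes are not named.

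**Figure D4:**
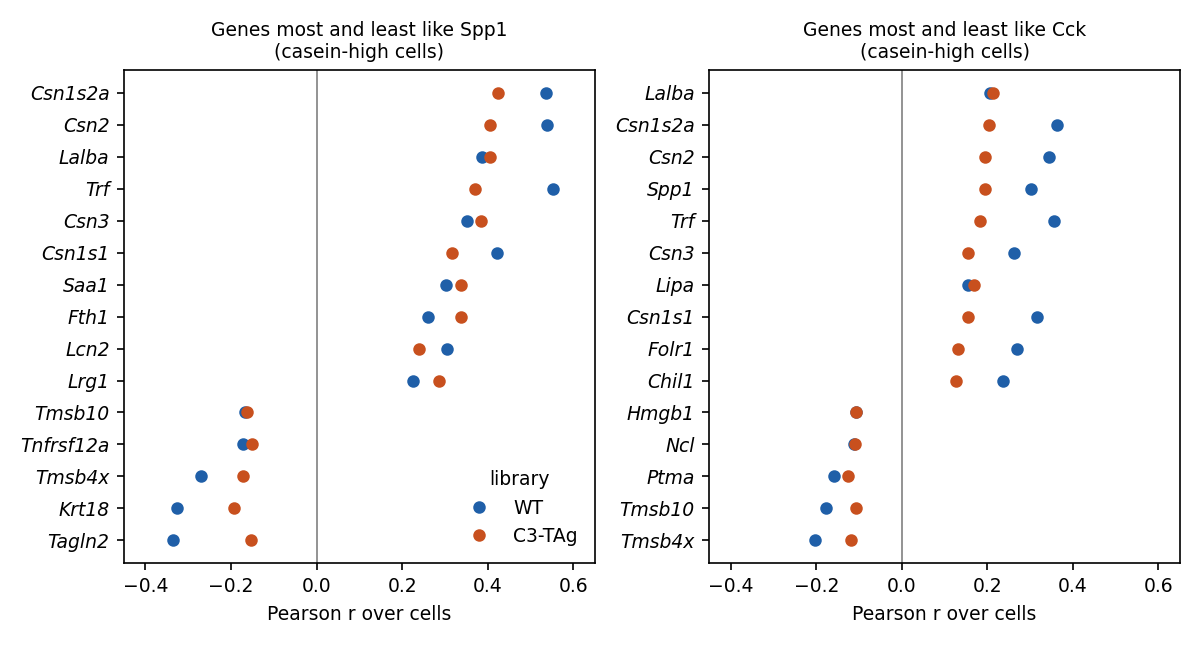
Pearson r over casein-high cells thinned to 2000 UMIs between each listed gene and Spp1 (left) or Cck (right), in WT (blue) and C3-TAg (orange); shown are the 10 genes at the top and the 5 at the bottom of the order over both libraries. Caseins, Lalba and Trf lead in both panels, and their r is lower for Cck. Cck also has fewer UMIs, and the part of that in the lower r was not tested.

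Spp1 lies in a cluster with other genes for acidic, integrin-binding matrix phosphoproteins. Of the 4 others, Dmp1 alone was measured in casein-high cells. Its level was 7.64 CPM in WT (358 UMIs) and 0.979 CPM in C3-TAg (28 UMIs), a log2 ratio of -2.96 (-3.57 to -2.41). Dspp had 4 UMIs in WT casein-high cells, and Ibsp and Mepe had none in any class.

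Osteopontin receptors were mostly lower in C3-TAg. In casein-high cells 7 of 8 measured receptor genes were at least 1.5-fold lower, none was higher, and the median log2 ratio was -1.37, against 10.6% of genes lower and a median of 0.32 over all genes. Itgb3 had 58.1 CPM in WT against 4.37 CPM in C3-TAg (log2 -3.73, -4.00 to -3.47), and its partner Itgav at 166.4 and 40.7 CPM (log2 -2.03, -2.12 to -1.94). The product of these genes is the alpha-v beta-3 integrin, a receptor for the RGD motif. Itga8 was at 31.3 and 4.51 CPM (log2 -2.79). Cd44 was at 71.0 and 29.2 CPM (log2 -1.28), Itgb5 at 23.8 and 10.2 CPM (-1.22), Itga5 at 3.95 and 1.43 CPM (-1.46) and Itgb6 at 15.7 and 10.3 CPM (-0.62). Itgb1, the beta chain shared by many integrins, was at 147.5 and 149.2 CPM (log2 0.02, -0.04 to 0.07), which the TMM shift turns negative. Itga4 and Itga9 had too few UMIs.

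Itgb3 belonged to casein-high cells in WT, with 2.95 CPM in casein-low and 2.73 CPM in hormone-sensing cells. Casein-low cells had 7 of 9 measured receptors lower in C3-TAg, where 14.7% of 12820 genes were lower and 37.2% higher. In hormone-sensing cells 3 of 7 receptors were lower and 1 higher, where 9.14% of 12786 genes were lower and 22.8% higher. The lower ones were Itgb3 (log2 -1.73), Itgav (-0.62) and Itgb6 (-0.61). The higher one was Cd44, with 6.97 CPM in WT against 40.1 CPM in C3-TAg (log2 2.53), opposite to its ratio in casein-high cells. In C3-TAg, 13.6% of kept cells held between 2 and 10 hormone UMIs per 10000, against 4.27% in WT, and 67.8% of the 357 C3-TAg cells just above the threshold, from 5 to 10, had at least 2 G2M UMIs. The part of those cells in the hormone-sensing ratios was not tested.

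Enzymes that modify osteopontin were mostly within 1.5-fold in casein-high cells, though not in the other classes. Of 7 measured in casein-high cells, 2 were lower and none higher in C3-TAg, where 10.6% of all genes were lower and 31.2% higher, and the median log2 ratio was -0.15. The secretory kinase gene Fam20c was at 21.9 and 18.9 CPM (log2 -0.21, -0.37 to -0.06), its activating partner Fam20a at 23.6 and 21.3 CPM, and Acp5, a phosphatase that acts on osteopontin, at 32.7 and 34.6 CPM. The lower ones were Tgm2, which encodes transglutaminase 2, at 42.0 and 27.5 CPM (log2 -0.61), and the membrane protease gene Mmp14 at 7.17 and 4.37 CPM (-0.71). In hormone-sensing cells 3 of 8 measured were higher and 2 lower, where 22.8% of all genes were higher and 9.14% lower. In casein-low cells 1 of 9 was higher and 4 lower, where 37.2% of all genes were higher and 14.7% lower.

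The partners of Cck were almost absent. Cckar had no UMI in any class of either library, Cckbr had 1 UMI in each of 3 class sums and Gast, which encodes the related hormone gastrin, had 1 UMI in WT casein-high cells. A count of 3 would have given 0.0640 CPM in WT casein-high cells and 0.105 CPM in C3-TAg ones. The convertase genes Pcsk1 and Pcsk2 had 2 and 0 UMIs in WT and 5 and 1 in C3-TAg casein-high cells. Chga, Chgb and Scg2, which encode granins of endocrine secretory granules, had at most 2 UMIs each in the casein-high cells of a library.

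Other processing genes were present. Of 11 measured in casein-high cells, 2 were higher and 3 lower in C3-TAg, beside 31.2% and 10.6% of all genes, and the median log2 ratio was -0.08. Furin was at 88.3 and 47.3 CPM (log2 -0.90), Pcsk5 at 3.16 and 1.43 CPM (-1.14) and Qpct, a glutaminyl cyclase gene, at 2.67 and 1.71 CPM (-0.64). Pcsk6 was at 0.256 CPM and 2.20 CPM (log2 3.105) and the sulfotransferase gene Tpst1 at 0.768 and 2.20 CPM (1.52). The others were within 1.5-fold. Tpst2 was at 71.3 and 67.3 CPM, Pam at 27.4 and 21.7, Cpe at 14.4 and 14.9, Cpd at 43.0 and 56.1, Pcsk7 at 21.4 and 30.3 and Ctsl, a cathepsin gene, at 698.6 and 550.6. With TMM scaling 5 were lower, and among genes with at least 100 UMIs none was higher. In hormone-sensing cells 7 of 10 measured genes were higher and none lower, beside 22.8% and 9.14% of all genes. Among them was Cpe, with 1.09 CPM in WT against 20.9 CPM in C3-TAg (log2 4.26). In casein-low cells 3 of 11 were higher and 4 lower, beside 37.2% and 14.7% of all genes. Among granule genes, 2 of 3 measured in casein-high cells were higher, Rab27b at 4.97 and 13.3 CPM (log2 1.42) and Syt7 at 0.619 and 1.33 CPM (1.10).

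**Figure D5:**
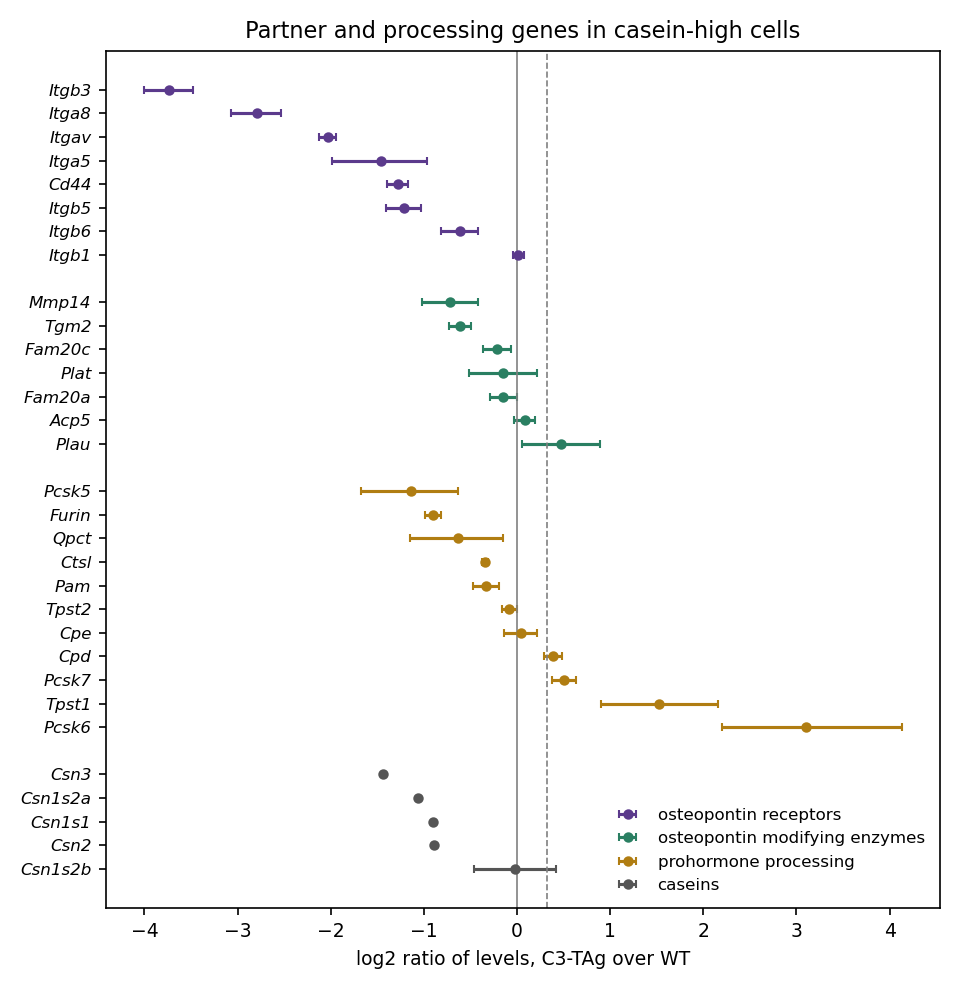
Log2 ratio of levels, C3-TAg over WT, in casein-high cells for every gene with at least 20 UMIs among the osteopontin receptors, osteopontin-modifying enzymes, prohormone-processing genes and caseins, with exact conditional Poisson 95% intervals; the solid line is 0 and the dashed line the median of all genes, 0.32. Of the receptors, Itgb1 alone lies at 0 and Itgb3 is lowest at -3.73.

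Milk genes differed in both directions in C3-TAg casein-high cells. Of 5 caseins 4 were lower, with log2 ratios from -1.44 for Csn3 to -0.89 for Csn2, and Csn1s2b was at -0.02. These caseins chose the class. Of the 16 other milk protein and milk fat globule genes, a list that includes Spp1, 8 were lower and 3 higher, beside 10.6% and 31.2% of all genes, and the median was -0.90. The lowest after Spp1 were Btn1a1, butyrophilin of the fat globule membrane, at 390.2 and 74.6 CPM (log2 -2.39) and Lao1 at 200.7 and 39.0 CPM (-2.36). Glycam1 went the other way, with 47.7 CPM in WT against 499.2 CPM in C3-TAg (log2 3.39). Fabp3 at 0.87 and Lpl at 0.80 were also higher, and with TMM scaling 1 gene was. None of the caseins and none of the other milk genes had a ratio as low as that of Spp1. Because Spp1 was picked with this contrast known, nothing is read from its place in the list.

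Of 14 secreted and antimicrobial genes 10 were lower and none higher, beside 10.6% and 31.2% of all genes in these cells, with a median of -1.39. Fcgbp was at 2052 and 123.1 CPM (log2 -4.06), Hp, which encodes haptoglobin, at 199.1 and 23.5 CPM (-3.08) and Ceacam10 at 152.4 and 18.0 CPM (-3.08). Fcgbp lay below Spp1, and the intervals of Hp and Ceacam10 overlapped with that of Spp1. Pigr, the polymeric immunoglobulin receptor gene, was at 57.2 and 66.5 CPM (0.22). Of 22 progenitor and alveolar regulators 7 were lower and 4 higher, or 11 and 1 with TMM scaling, under which 2274 of the 12905 genes were lower and 2251 higher. Hey1, a Notch target, was lowest, at 107.6 and 2.03 CPM (log2 -5.73), and in the WT groups ranked by Spp1 it went from 47.2 to 141.0 CPM. Itga2 was at -1.83 and Aldh1a3 at -1.11, while Tfap2c was at 0.92 and Ehf at 0.84.

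Of 15 CREB and AP-1 factor genes 3 were higher and 3 lower, beside 31.2% and 10.6% of all genes, or 1 and 6 with TMM scaling, and the median was 0.06. Creb3l1 was at 65.1 and 22.9 CPM (log2 -1.50), Crem at 98.99 and 51.8 CPM (-0.93) and Creb3l2 at 17.9 and 10.3 CPM (-0.80), and Atf3 was at 62.3 and 149.2 CPM (1.26), with Creb5 at 0.85 and Atf1 at 0.70. Of 7 measured calcium-handling genes Stim1 was higher (log2 0.66) and the Golgi pump gene Atp2c2 lower (-0.90), beside 31.2% and 10.6% of all genes. With TMM scaling none was higher and 3 were lower. All 20 G2M genes were higher. Of 11 measured hormone-sensing luminal genes Prom1 was higher (log2 0.61) and Cited1 (-0.86), Foxa1 (-0.67) and Calca (-1.87) were lower, all of them under 10 CPM in these cells. The hormone rule caps the summed level of Cited1, Areg, Pgr and Esr1 in this class, so nothing is read from their ratios.

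Markers of other cells that make osteopontin or cholecystokinin were scarce in casein-high cells. Of 9 macrophage markers 8 were detected, and their summed level was 8.34 CPM in WT and 5.32 in C3-TAg, of which Cd68 made up 7.08 and 4.27. Adgre1 was at 0 in every class. Across all 6 class sums the macrophage list ranged from 3.30 to 37.3 CPM. The 21 non-epithelial markers summed to 17.8 CPM in WT and 9.62 in C3-TAg casein-high cells, and to 712.0 and 146.9 CPM in hormone-sensing cells, where Dcn alone was at 702.6 and 135.9 CPM. Of 6 neuroendocrine markers 3 were detected in casein-high cells of each library, at sums of 0.192 and 0.175 CPM. The 9 basal markers summed to 56.3 CPM in WT and 502.6 in C3-TAg casein-high cells, where Krt14 had 26.2 CPM in WT against 461.8 in C3-TAg. Krt5, another basal keratin, had 29 and 2 UMIs. The part of basal gene expression in the ratios of Spp1 and Cck was not tested. Without cells in which 2 or more non-epithelial genes were detected, the casein-high ratios differed from those above by less than their counting intervals.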

How the data were processed

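The authors deposited raw UMI counts per gene and barcode. Per the submitters' processing notes, Cell Ranger 3.1.0 and the mm10 build were used. Barcodes with at least 500 genes, at least 1000 UMIs and at most 10% mitochondrial UMIs were kept, 7406 in WT and 8458 in C3-TAg, and 360 and 544 doublets called by Scrublet per library were removed. UMIs were summed per class and library and divided by the class total (CPM). Levels have exact Poisson intervals, ratios exact conditional Poisson intervals and shares Clopper-Pearson intervals, at 95%. A gene needed 20 UMIs in all to be measured and was called higher or lower from 1.5-fold. A library with no UMI was set to 3 counts. There is no p-value, since each group is 1 library. TMM factors came from edgeR 4.0.16, and the rest from scanpy 1.11.5, scipy 1.17.1 and numpy 2.4.6 in Python 3.11.15. The ratio step was run on Poisson counts simulated for the casein-high comparison, with 200 of 12905 genes changed. The changed genes were drawn from those with at least 100 expected C3-TAg UMIs. The simulated direction was recovered for 100% of those changed 1.5-fold or 4-fold, and 95.5% of intervals held the true ratio. Because the intervals assume Poisson counts, this checks the calculation only. It says nothing about spread between cells or libraries or about calls at lower counts.

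The members and gene lists were chosen with earlier results of these data known. The text names the members, the 10 genes most and 5 least like each in both libraries among those with 50 CPM, and some of the 10 most like Cck in WT. It also names the measured receptor, family and processing genes, and from each other list up to 3 genes at either end among those with 20 CPM, of which a part is described. Mmp14, Creb3l2, Stim1, Wap, Krt14, Krt5, Cd68, Dcn, the 4 hormone-sensing luminal genes and the granule genes Rab27b and Syt7 were named after their values were seen. Alternatives were other hormone, casein and cell filters, thinning depths, UMI minima and scalings.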

Additional observations from a re-analysis of the deposited data

How the results depend on the processing

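In all 174 values that alternative settings gave for 14 log2 ratios, the direction was kept. The ratio of casein-low over hormone-sensing cells was not among the 14. For Spp1 its direction turned in both libraries with a hormone threshold of 2, with called doublets kept and with all barcodes. With all barcodes Spp1 was at 883.5 CPM in casein-low and 2912 CPM in hormone-sensing cells of WT, and at 105.3 and 250.1 CPM in C3-TAg. In WT it also turned with a casein threshold of 0.25%. The following log2 ratios of C3-TAg over WT moved beyond the counting interval, given in the order hormone-sensing, casein-high, casein-low where several are named. For Spp1, all barcodes gave -3.54, -3.08 and -3.07, doublets kept gave -3.53 and -3.10 in the first 2 classes, and TMM scaling gave -3.09, -3.38 and -3.23. Without cells with 2 or more G2M UMIs the values were -3.80, -2.16 and -2.64. A hormone threshold of 10 gave -2.44 in hormone-sensing and -2.81 in casein-low cells, a threshold of 2 gave -3.02 in casein-high and -3.13 in casein-low cells, and a threshold of 20, chosen after seeing the data, gave -3.57 in hormone-sensing and -2.47 in casein-low cells. A casein threshold of 0.25% gave -3.13 in casein-high and -2.07 in casein-low cells, and 1% gave -2.87 and -3.77. In casein-high cells the mean over cells gave -3.08, and leaving milk genes out of the total gave -3.15. For Cck in hormone-sensing cells, thresholds of 10 and 20 gave -2.97 and -1.45 and the mean over cells -2.93. In casein-high cells, 1% casein gave -4.34, leaving out cells with 2 or more G2M UMIs gave -2.91 and TMM gave -4.87. The causes were not tested.

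Between classes, the log2 ratio of casein-high over hormone-sensing cells in WT ranged from 3.11 to 6.28 for Spp1 and from 2.98 to 6.87 for Cck, lowest where doublets or all barcodes were kept. WT hormone-sensing Spp1 ranged from 331.3 to 2926 CPM. Genes lower in C3-TAg numbered 1805 with TMM and 778 with at least 100 UMIs in hormone-sensing cells, against 1169. In casein-high cells TMM gave 2251 higher and 2274 lower, against 4022 and 1363. In casein-low cells 3348 were lower with no minimum and 1171 with at least 100 UMIs, against 1885. Leaving out barcodes found in both libraries moved no ratio beyond its interval. Counting limits Cck in C3-TAg hormone-sensing and casein-low cells, which held 19 and 4 UMIs. No paired analysis was possible because each group is 1 library.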
